A study of Drosophila melanogaster with 4 samples.

Results

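The peptidoglycan recognition proteins (PGRPs) of Drosophila melanogaster were followed at the level of messenger RNA in the larval fat body. The 9 genes were taken by name from the deposited tables, as PGRP-SA, PGRP-SD, PGRP-SB1, PGRP-SC2, PGRP-LA, PGRP-LB, PGRP-LC, PGRP-LE and PGRP-LF, out of 13990 gene symbols. The tables hold 13 genes named PGRP, and the other 4 are described briefly. All 9 had an estimate of good status in every library. Fat bodies, the organ that stores nutrients and secretes most humoral immune proteins, came from larvae of instar 3 at 110 h after egg laying, labelled yw. Larvae of both groups carried dMef2-Gal4, a driver for muscle. In the Con group it drove UAS-white-RNAi, against the eye pigment gene white. In the ND-75-i group it drove UAS-ND-75-RNAi, against a subunit of mitochondrial complex I. The design sets the fat body of larvae with complex I targeted in muscle against that of controls. Each group had 2 libraries, each of RNA from 10 pooled fat bodies. The sex of the larvae is not given in the sources used here. The labels do not say whether the libraries of a group came from separate crosses. The p-values therefore take only the variation among these 4 libraries as error, and it may be technical.

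PGRPs bind peptidoglycan, the polymer of bacterial cell walls, through a domain related to bacteriophage amidases. Some are sensors. PGRP-SA and PGRP-SD are secreted into the haemolymph and start the protease cascade that activates Toll, while PGRP-LC in the plasma membrane and PGRP-LE inside the cell activate the Imd pathway and its transcription factor Relish. Others have kept the amidase activity and cut peptidoglycan, among them PGRP-LB, PGRP-SB1 and PGRP-SC2, and PGRP-LF is a membrane protein that restrains PGRP-LC. In the fat body both pathways end in the transcription of antimicrobial peptide genes.

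Values are FPKM, read fragments corrected for transcript length and library size, which are comparable between genes of different length. Values given in pairs are those of replicate 1, then replicate 2. Changes are differences of log2(FPKM + 1), ND-75-i minus Con, from limma's moderated test over 10024 genes with Benjamini-Hochberg adjustment, a threshold of 0.05 and the SE from the same fit. The test called 8.85% of all genes, 778 of them higher in ND-75-i (7.76%) and 109 lower (1.09%). ND75, the target of the RNAi, was itself at 46.6 and 43.9 FPKM (Con) against 94.8 and 79.0 FPKM (ND-75-i) in the fat body (log2 change 0.92, limma adjusted p = 0.0353). Muscle, where the driver acts, was not sampled, so this is no check of the knockdown. The log2 change of the median gene was 0.25, which median-ratio rescaling of the libraries brought to -0.01, and higher genes made up 87.7% of the calls as deposited, 71.7% after that rescaling and 61.3% after quantile normalization. With any 1 library left out limma called 0 genes in either direction, with 1703 to 2839 higher and 344 to 1633 lower before adjustment (p below 0.05), so every call below rests on all 4 libraries. Summed FPKM per library was 849472 to 957235. Of 10 fat body markers, 7 could be used, and each was above 1 FPKM in every library. Their sum was 81432 and 86084 FPKM (Con) against 23472 and 32653 FPKM (ND-75-i), with Lsp1alpha, Fbp1 and Fbp2 lower in ND-75-i and the other 4 higher on average. Of the 7, limma called Lsp1alpha lower (limma adjusted p = 0.0220) and Cg25C higher. The larval serum protein genes Lsp1beta and Lsp1gamma were listed at 0 with a status of too many fragments, as was Lsp2 in Con, while in ND-75-i it stood at 16637 and 25411 FPKM. Markers of other tissues were present too, and salivary gland markers summed to 84124 and 39496 FPKM (Con) against 27186 and 18491 FPKM (ND-75-i). Larval muscle markers summed to 41.8 and 43.4 FPKM (Con) against 69.1 and 49.7 FPKM (ND-75-i).

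Of the 9 genes, 2 fell in ND-75-i and 0 rose by limma (1.09% and 7.76% of all genes, 8.85% in both directions). Before adjustment 2 were higher and 2 lower (p below 0.05) (29.4% and 7.72% of all genes). The genes that fell were PGRP-SA and PGRP-SD, the secreted sensors of the Toll route. The groups did not overlap for 6 genes. ND-75-i lay below Con for PGRP-SA and PGRP-SD (21.7% of all genes did) and above Con for PGRP-LC, PGRP-LA, PGRP-LF and PGRP-LB (53.7% of all genes did). The 4 above are therefore no larger a share than in the table as a whole, and the 2 below are about the same share. PGRP-LF passed the filter on low values only through its ND-75-i libraries and had to differ. The median log2 change over the 9 genes was 0.42, against 0.25 over all genes tested, and 0.16 against -0.01 after median-ratio rescaling.

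**Figure D1:**
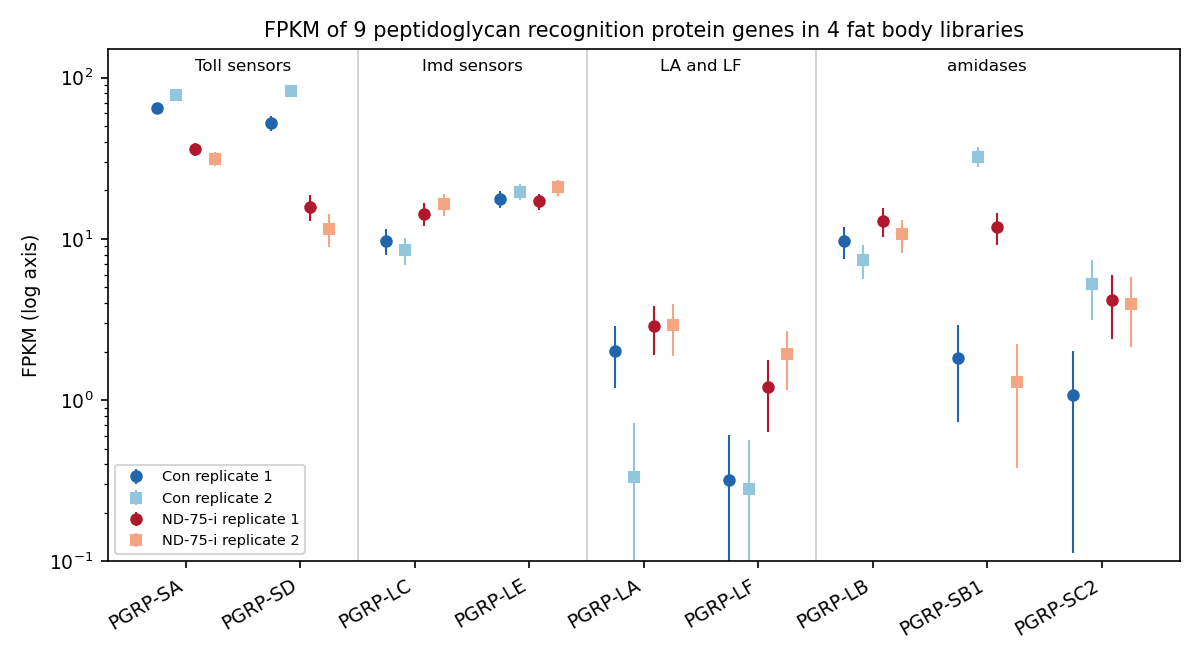
FPKM (log axis) of the 9 genes in each library, grouped by the role of the protein. Bars are the bounds deposited with each FPKM, and lower bounds under 0.1 run to the edge of the plot. Both ND-75-i points lie below both Con points for PGRP-SA and PGRP-SD, and the Con points of PGRP-SB1 lie at 1.84 and 32.4 FPKM.

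PGRP-SA lies on the X chromosome at 11455562 to 11456813 in the deposited tables and encodes the haemolymph receptor that, with GNBP1, recognises lysine-type peptidoglycan of Gram-positive bacteria. It stood at 65.2 and 78.1 FPKM (Con) against 35.9 and 31.4 FPKM (ND-75-i). Both ND-75-i libraries were lower than both Con libraries, and the libraries of a group differed by at most 1.2-fold. Its mean fell from 71.7 ± 9.11 to 33.7 ± 3.21 FPKM (SD, n = 2), which is 2.13-fold lower. The log2 change was -1.07 (SE 0.139, limma adjusted p = 0.0336). Rescaling the libraries by median ratio gave -1.35 (limma adjusted p = 0.0230). Without any 1 library the change was -1.19 to -0.94 and the limma adjusted p was 0.0589 to 0.141. From the confidence bounds of the FPKM, about 816 and 995 fragments (Con) and 506 and 402 (ND-75-i) stood behind these values, and the bounds of the groups did not meet. The end of the gene overlaps RpII215, the large subunit of RNA polymerase II, which was at 16.4 and 18.9 FPKM (Con) against 20.2 and 18.8 FPKM (ND-75-i).

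PGRP-SD lies on chromosome arm 3L at 7644305 to 7645000 and encodes a second secreted receptor, which assists PGRP-SA in Toll activation and has also been tied to the Imd response. It stood at 52.1 and 82.8 FPKM (Con) against 15.8 and 11.6 FPKM (ND-75-i). The highest ND-75-i library was well under the lowest Con library. Its mean fell from 67.4 ± 21.7 to 13.7 ± 2.96 FPKM (SD, n = 2), which is 4.94-fold lower. The log2 change was -2.20 (SE 0.291, limma adjusted p = 0.0341), and 0.359% of genes tested had a lower one. Without any 1 library it was -2.53 to -1.87 with a limma adjusted p of 0.0559 to 0.138. The values rest on 343 and 556 fragments (Con) and 117 and 78 (ND-75-i), as implied by the bounds. The gene lies within the locus of CG32373, listed at 0.425 to 1.51 FPKM, and meets the end of CG7492, at 13.7 and 14.1 FPKM (Con) against 13.3 and 12.3 FPKM (ND-75-i).

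The levels of the 2 Toll sensors were also compared with each other and with PGRP-LE inside each library. PGRP-SD had 0.799 and 1.06 times the FPKM of PGRP-SA in the Con libraries, against 0.438 and 0.369 times in those of ND-75-i, a ratio that multiplying a whole library by a constant does not alter. PGRP-SA had 3.69 and 3.97 times the FPKM of PGRP-LE in the Con libraries, against 2.10 and 1.51 times in those of ND-75-i. These ratios were not tested. The genes whose levels over the 4 libraries lay nearest to PGRP-SA, by Euclidean distance in log2(FPKM + 1), were granny-smith, a leucyl aminopeptidase gene, at 0.147, and CG34253, at 0.194. Those nearest to PGRP-SD were CG9238, at 0.664, and CG12224, at 0.687, farther than for PGRP-SA.

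Haemocytes, the blood cells, also express immune receptors, and the summed level of most of their markers was lower in ND-75-i as well. The summed FPKM of 8 haemocyte markers was 113 and 185 (Con) against 58.8 and 80.8 (ND-75-i), with no marker at 0. The sum leaves out a ninth marker, the collagen gene Cg25C, which is also a fat body marker and rose from 182 and 143 to 362 and 310 FPKM (log2 change 1.05, limma adjusted p = 0.0432). Of the other 7 tested, limma called 0, with 2 lower before adjustment (p below 0.05) (7.72% of all genes). These were the phagocytosis receptor gene nimC1, at 2.58 and 3.52 against 0.608 and 0.945 FPKM, and nimC2 of the same family, at 60.5 and 74.7 against 12.6 and 24.6 FPKM. nimC1 passed the filter on low values only through Con and had to differ. nimC2 was the largest part of both Con sums, and without it the sums of the groups overlapped. The scavenger receptor gene crq was at 22.5 and 24.0 against 23.1 and 23.3 FPKM. In bulk tissue fewer cells of a type and less RNA per cell cannot be told apart. Testis markers summed to 345 and 241 FPKM (Con) against 192 and 41.5 FPKM (ND-75-i). The part of these markers, and of those of the salivary gland, in the fall of PGRP-SA and PGRP-SD was not tested.

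**Figure D2:**
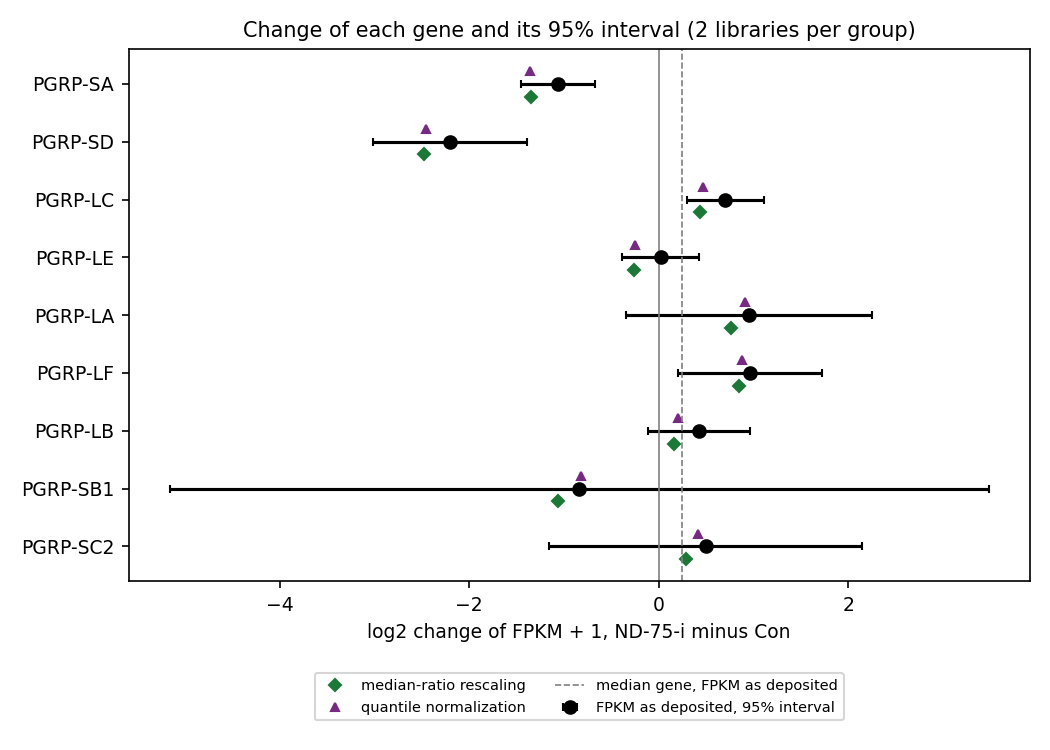
Log2 change of FPKM + 1 (ND-75-i minus Con) for each gene with its unadjusted 95% interval from limma, and the value after 2 other scalings. PGRP-SA and PGRP-SD lie below 0 under all 3 scalings, PGRP-LE moves from 0.02 to -0.26 and -0.25, and the interval of PGRP-SB1 spans -5.16 to 3.48.

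The sensors of the Imd pathway did not change beyond the threshold. PGRP-LC, on 3L at 9331910 to 9341436, encodes the membrane receptor for DAP-type peptidoglycan of Gram-negative bacteria and comes in several splice forms, which the gene totals do not separate. It stood at 9.71 and 8.49 FPKM (Con) against 14.4 and 16.5 FPKM (ND-75-i). The groups did not overlap, and the ND-75-i mean was 1.69 times that of Con. The log2 change of 0.70 (SE 0.145) missed the threshold over all genes (limma adjusted p = 0.0643). It passed when only genes with a mean of at least 5 FPKM were tested (limma adjusted p = 0.0424). In that narrower set 1137 of 6658 genes were called higher, against 778 of 10024 in the main fit. After median-ratio rescaling the change was 0.43 (limma adjusted p = 0.184). Within each library PGRP-LC had 0.550 and 0.432 times the FPKM of PGRP-LE in the Con libraries, against 0.838 and 0.791 times in those of ND-75-i.

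PGRP-LE, on X at 15695185 to 15696958, encodes a receptor that detects peptidoglycan fragments inside cells and also acts outside them. It stood at 17.6 and 19.7 FPKM (Con) against 17.1 and 20.8 FPKM (ND-75-i). The groups overlapped, with ND-75-i holding both the lowest and the highest library. Its log2 change was 0.02 with a 95% interval of -0.39 to 0.43 (SE 0.147, limma adjusted p = 0.924). The interval leaves room for a modest change either way. After median-ratio rescaling the difference was -0.26 (limma adjusted p = 0.320). Of the 9 genes it had the smallest log2 change in size on the FPKM as deposited. After median-ratio rescaling and quantile normalization PGRP-LB had a smaller one (0.16 and 0.21). The values of PGRP-LE rested on 274 to 331 implied fragments per library.

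PGRP-LA and PGRP-LF flank PGRP-LC on 3L, at 9327432 to 9331436 and at 9342711 to 9344589. PGRP-LA lacks residues that bind peptidoglycan and has been placed among the positive regulators of the Imd pathway in epithelia. It stood at 2.03 and 0.336 FPKM (Con) against 2.87 and 2.92 FPKM (ND-75-i). The Con libraries differed 6.04-fold from each other, and the lower of them rested on about 3 fragments. The log2 change was 0.95 (SE 0.464, limma adjusted p = 0.200), and 0.36 without Con replicate 2. PGRP-LF, the inhibitor of PGRP-LC, stood at 0.320 and 0.280 FPKM (Con) against 1.21 and 1.92 FPKM (ND-75-i). Both Con libraries were under 1 FPKM and both ND-75-i libraries above it. Its difference on the log2 scale was 0.97 (SE 0.272, limma adjusted p = 0.0977). The bounds correspond to about 5 and 4 fragments (Con) and 18 and 26 (ND-75-i). PGRP-LF overlaps UGP, the UTP-glucose pyrophosphorylase gene, which was at 85.8 and 85.1 FPKM (Con) against 123.8 and 106.6 FPKM (ND-75-i). The strand setting is not given in the sources used here, and reads of the shared stretch could have been assigned to either gene. The 3 neighbours thus all had ND-75-i above Con (53.7% of all genes did), and none passed the test. Of these, PGRP-LF had to differ, since it passed the filter on low values only through ND-75-i.

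None of the 3 amidase genes passed the test. PGRP-LB, on 3R at 7278563 to 7283742, encodes the amidase that degrades DAP-type peptidoglycan and limits Imd signalling. It stood at 9.70 and 7.42 FPKM (Con) against 12.9 and 10.7 FPKM (ND-75-i). The gap between the groups was smaller than that between the libraries of either group. On the log2 scale the difference was 0.42 (SE 0.193, limma adjusted p = 0.184). Median-ratio rescaling left a difference of 0.16. The gene lies within the locus of CG17230, at 6.55 and 7.31 FPKM (Con) against 5.67 and 3.65 FPKM (ND-75-i).

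PGRP-SB1, on 3L at 16720399 to 16721118, encodes a secreted amidase with activity against DAP-type peptidoglycan that is induced through the Imd pathway. It was the most variable of the 9 genes, at 1.84 and 32.4 FPKM (Con) against 11.8 and 1.30 FPKM (ND-75-i). The libraries differed 17.7-fold within Con and 9.08-fold within ND-75-i. The highest and the second highest were Con replicate 2 and ND-75-i replicate 1. The 4 values correspond to 11, 198, 80 and 8 fragments, a spread wider than that of counting alone. The log2 change was -0.84 (SE 1.55, limma adjusted p = 0.693) and turned to 0.94 without Con replicate 2 and to 0.40 without ND-75-i replicate 2. Its neighbour PGRP-SB2, a gene of the same cluster, was listed at 0 in all 4 libraries.

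Antimicrobial peptide genes, the outputs of both pathways, mostly had their highest level in the same library as PGRP-SB1. Of 14 listed, 11 were tested, and 8 of these were highest in Con replicate 2, as were 13% of all genes tested. Dpt, the diptericin gene read as a reporter of Imd signalling, stood at 9.03 and 270.7 FPKM (Con) against 26.1 and 13.9 FPKM (ND-75-i). Mtk, the metchnikowin gene, stood at 8.64 and 75.2 FPKM (Con) against 42.2 and 7.39 FPKM (ND-75-i). Both were named after their values were seen, and like PGRP-SB1 they ranked Con replicate 2 first and ND-75-i replicate 1 second. Over all genes tested limma called 1 of the 11 lower and 0 higher (1.09% and 7.76% of all genes). Before adjustment 1 was higher and 2 lower (p below 0.05), against 29.4% and 7.72% of all genes. The gene called was AttA, an attacin gene, which fell from 9.52 and 11.6 to 0.704 and 0.258 FPKM (log2 change -2.98, SE 0.250, limma adjusted p = 0.0193). AttA has a near-identical copy, AttB, at 11.4 and 19.2 against 3.89 and 0.747 FPKM, and how reads were split between them is uncertain. AttA reached 1 FPKM only in its Con libraries, so it passed the filter on low values only through them and had to differ. The cecropin gene CecC, named after its values were seen, went the other way, at 46.0 and 2.07 FPKM (Con) against 248 and 405 FPKM (ND-75-i) (limma adjusted p = 0.108). Con replicate 2 also had the highest sums of fat body and haemocyte markers, given above, and of midgut markers, given below. The same held for trachea and epidermis markers, at 28.3 and 92.1 FPKM (Con) against 37.7 and 46.9 FPKM (ND-75-i). Whether these tissues take part in the values of PGRP-SB1 was not tested.

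**Figure D3:**
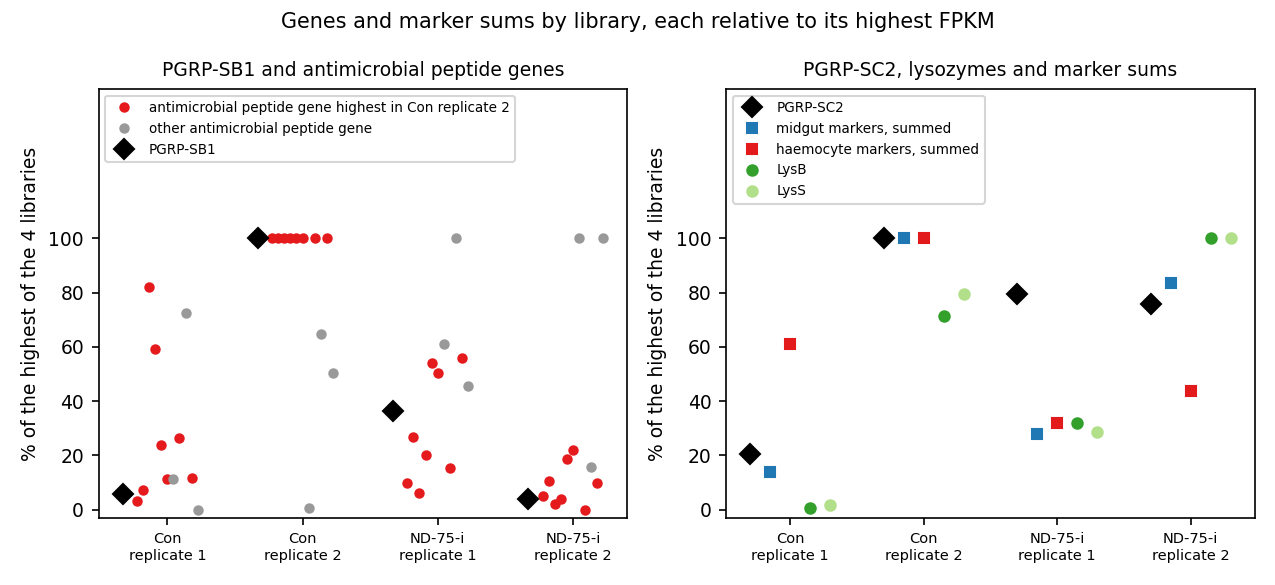
Left, PGRP-SB1 and the 11 antimicrobial peptide genes tested; right, PGRP-SC2, 2 lysozyme genes and the summed markers of midgut and haemocytes. The vertical axes give FPKM as a percentage of the highest of the 4 libraries, points are shifted sideways for clarity, and PGRP-SB1 and 8 of 11 peptide genes reach their highest value in Con replicate 2.

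PGRP-SC2, on 2R at 4604472 to 4605026, encodes a secreted amidase known chiefly from the gut, where it lowers exposure to peptidoglycan. It stood at 1.07 and 5.25 FPKM (Con) against 4.17 and 3.97 FPKM (ND-75-i). Con replicate 1 was low and the other libraries lay close together. For PGRP-SC2 the log2 change was 0.50 (SE 0.592, limma adjusted p = 0.541), and -0.30 without Con replicate 1. The values correspond to 5, 25, 22 and 19 fragments. Midgut markers summed to 394 and 2861 FPKM (Con) against 801 and 2394 FPKM (ND-75-i), over 11 genes of which 0 to 3 were at 0 in a library. They were lowest in Con replicate 1 and highest in Con replicate 2, the same libraries as for PGRP-SC2. The digestive lysozyme gene LysS, named after its values were seen, was at 10.7 and 496 FPKM (Con) against 178 and 624 FPKM (ND-75-i). Limma called 0 of 5 lysozyme genes tested. Before adjustment (p below 0.05) it was 0 in either direction, against 29.4% higher and 7.72% lower of all genes. Of 6 midgut markers tested limma called 1 higher and 0 lower (7.76% and 1.09% of all genes). The 1 was the trypsin-like protease gene Jon99Cii, at 0.114 and 0.223 FPKM (Con) against 86.1 and 110.4 FPKM (ND-75-i). It passed the filter on low values only through ND-75-i and had to differ. The part of midgut tissue in the values of PGRP-SC2 was not tested.

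The 2 Toll sensors took 73.5% and 68.5% of the summed FPKM of the 9 genes in the Con libraries, against 44.5% and 42.5% in those of ND-75-i. The 2 Imd sensors took 17.1% and 12.0% (Con) against 27.1% and 36.9% (ND-75-i). The 3 amidases ranged from 7.9% to 24.9%, with groups that overlapped, and PGRP-LA and PGRP-LF together from 0.262% to 4.79%. An exact two-sided permutation test over the 4 shares gave p = 0.333 for the Toll sensors, the Imd sensors and PGRP-LA with PGRP-LF (Benjamini-Hochberg adjusted 0.444), the smallest p that 2 libraries against 2 allow. For the amidases the exact permutation p was 0.667 (adjusted 0.667). That smallest p lies above the threshold, so no share could have passed this test, and it cannot decide whether the shares differed. The groups did not overlap for the Toll sensors, lower in ND-75-i, or for the Imd sensors and PGRP-LA with PGRP-LF, both higher. Shares of a sum are tied, so a lower share of the Toll sensors raises those of the other roles. Summed FPKM of the Toll sensors was 117 and 161 (Con) against 51.7 and 43.0 (ND-75-i). For the Imd sensors it was 27.4 and 28.2 against 31.5 and 37.3, and for PGRP-LA with PGRP-LF 2.35 and 0.616 against 4.08 and 4.84. The sum itself was 159.6 and 234.8 FPKM (Con) against 116.2 and 101.1 FPKM (ND-75-i). The level of both Toll sensors was lower in ND-75-i, while the groups overlapped for PGRP-LE.

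**Figure D4:**
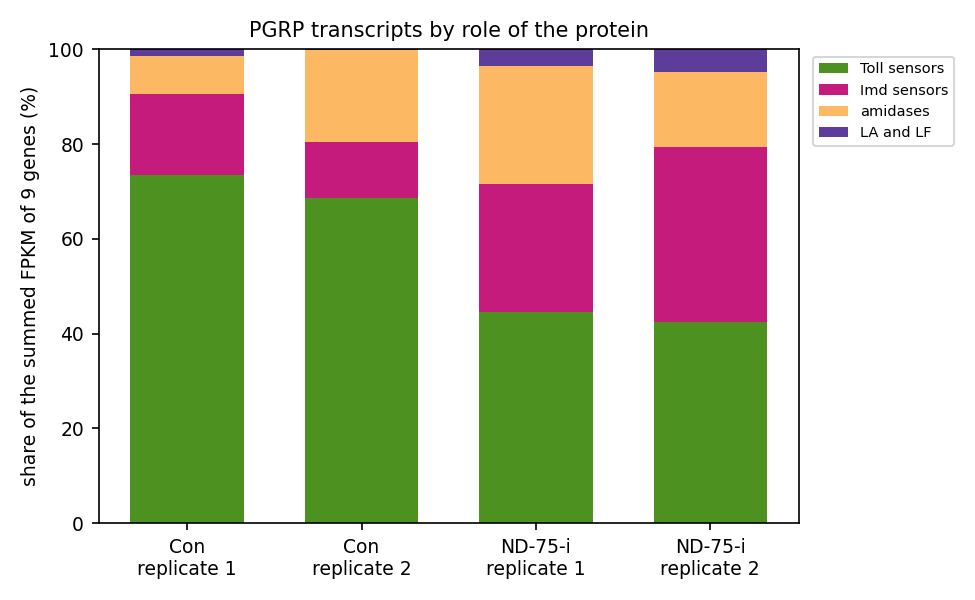
Share of the summed FPKM of the 9 genes (%) taken by the genes of each role, in each library. The Toll sensors PGRP-SA and PGRP-SD take 68.5% to 73.5% in Con and 42.5% to 44.5% in ND-75-i.

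The order of levels differed between the groups. In Con, PGRP-SA and PGRP-SD were highest with ranges that overlapped, followed by PGRP-LE, PGRP-SB1, PGRP-LC, PGRP-LB, PGRP-SC2, PGRP-LA and PGRP-LF. Neighbours were separated by more than their ranges only between PGRP-SD and PGRP-LE, between PGRP-LB and PGRP-SC2, and between PGRP-LA and PGRP-LF. In ND-75-i the order was PGRP-SA, PGRP-LE, PGRP-LC, PGRP-SD, PGRP-LB, PGRP-SB1, PGRP-SC2, PGRP-LA and PGRP-LF. From PGRP-LC down to PGRP-SC2 the range of each gene there overlapped that of the next. The range of PGRP-SB1 also reached those of PGRP-LA and PGRP-LF. PGRP-SD went from above 89.7% of the genes tested in Con to above 60.3% in ND-75-i, and PGRP-SA from 90.4% to 79.7%.

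Of the other 4 genes of the family, PGRP-LD, of unsettled function, was tested. It stood at 3.38 and 3.69 FPKM (Con) against 1.95 and 2.07 FPKM (ND-75-i). Its groups did not overlap, and its log2 change of -0.59 missed the threshold (SE 0.183, limma adjusted p = 0.111). PGRP-SC1a and PGRP-SC1b, near-identical amidase genes whose reads could be split between them, were at 0 to 0.672 FPKM and were not tested.

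Of 17 other genes listed for the Toll pathway 1 fell and 0 rose by limma (1.09% and 7.76% of all genes). Before adjustment 5 were higher and 1 lower (p below 0.05), against 29.4% and 7.72% of all genes. Their median log2 change was 0.22, and -0.05 after median-ratio rescaling, against 0.25 and -0.01 for all genes. The gene that fell was grass, which encodes a serine protease of the cascade started by PGRP-SA. It was at 66.5 and 60.2 FPKM (Con) against 28.7 and 35.6 FPKM (ND-75-i) (log2 change -0.96, SE 0.144, limma adjusted p = 0.0408). Under median-ratio rescaling the limma adjusted p was 0.0559, and without the filter on low values grass also missed the threshold. Other settings called Toll pathway genes higher. With a pseudocount of 5 it was 2 of 17, against 892 of all 10024 genes. Over genes averaging at least 5 FPKM it was 3 of 16, against 1137 of all 6658. Under the replicate block it was 1 of 17, against 792 of all 10024. The protease gene modSP, which acts just upstream of grass, had ND-75-i above Con, at 18.7 and 22.4 against 35.1 and 33.3 FPKM (limma adjusted p = 0.0541). GNBP1, the partner of PGRP-SA, was at 18.3 and 17.9 against 23.8 and 25.2 FPKM (limma adjusted p = 0.0780). Of 3 GNBP genes tested 0 passed, with 2 higher before adjustment (p below 0.05), against 29.4% of all genes. The ligand gene spz was at 15.7 and 15.8 against 28.1 and 23.2 FPKM (limma adjusted p = 0.0630). The inhibitor gene cact, itself a target of the pathway, was at 37.3 and 44.2 against 65.3 and 73.5 FPKM (limma adjusted p = 0.0511). The differences of modSP, GNBP1, spz and cact, named after their values were seen, were 0.71, 0.41, 0.67 and 0.76 on the log2 scale, and 0.43, 0.14, 0.39 and 0.47 after median-ratio rescaling.

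**Figure D5:**
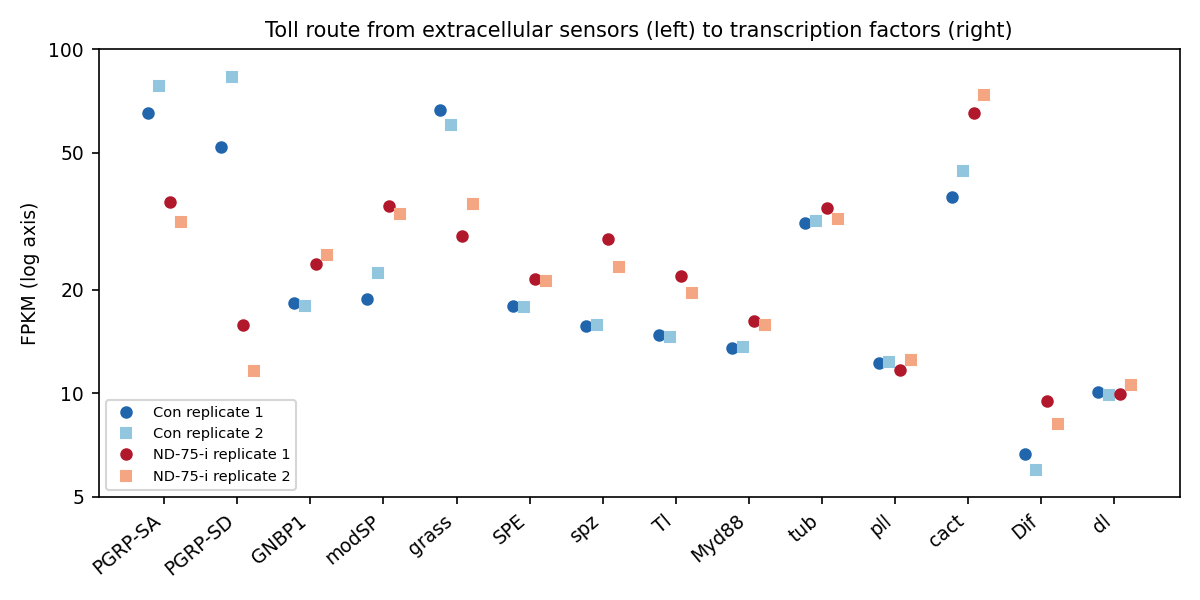
FPKM (log axis) in each library for PGRP-SA and PGRP-SD and for 12 genes that act with them or after them, from the haemolymph cascade to the transcription factor genes Dif and dl. PGRP-SA, PGRP-SD and grass have both ND-75-i points below both Con points (21.7% of all genes did). GNBP1, modSP, SPE, spz, Tl, Myd88, tub, cact and Dif have them above (53.7% of all genes did).

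Beyond the receptors, no gene listed for the Imd pathway passed the test. Limma called 0 of 13 components (8.85% of all genes were called). Before adjustment 2 were higher and 0 lower (p below 0.05), against 29.4% and 7.72% of all genes. The median log2 change was 0.14, under that of all genes, and -0.15 after median-ratio rescaling. Rel, which encodes the transcription factor Relish, was at 25.3 and 27.7 FPKM (Con) against 28.3 and 29.8 FPKM (ND-75-i), and imd, the adaptor gene, at 15.2 and 14.5 against 16.6 and 17.2 FPKM, both named after their values were seen. Among 9 negative regulators, with a median of 0.05 (-0.23 after median-ratio rescaling), limma called 0. Before adjustment 1 was higher and 0 lower (p below 0.05), against 29.4% and 7.72% of all genes. The 1 was pirk, whose product binds PGRP-LC and removes it from the cell surface, at 0.345 and 0.610 FPKM (Con) against 1.90 and 4.66 FPKM (ND-75-i) (limma adjusted p = 0.0979). Like PGRP-LF, it passed the filter on low values only through ND-75-i. Of 7 melanization genes tested, a response that PGRP-LE can also set off, limma called 0, with a median of -0.05. At p below 0.05 before adjustment 3 were higher and 1 lower, against 29.4% and 7.72% of all genes. With the replicate number as a block 2 of the 7 were called lower, as were 198 of all 10024 genes.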

How the data were processed

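For each library the authors deposited gene FPKM with confidence bounds and a status flag, per the file headers. The submitters' processing notes list Bowtie 0.12.2. Not given in the sources used here: the genome build, the strand setting, the annotation and the program behind the FPKM. Printed coordinates are those of the tables with 1 added to each start. Gene names turned into dates (5 in Con replicate 1) were restored by position. Lines of one symbol were summed.

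Genes of OK status in all 4 libraries (13882 symbols) with at least 1 FPKM in at least 2 libraries entered the test (10024). Group was the only term of the limma fit (limma 3.58.1, R 4.3.3) to log2(FPKM + 1), which let the variance follow the mean level. Tests were two-sided, with 2 residual and 1.95 prior degrees of freedom. Changes on this scale understate those of low genes. FPKM are not counts, so no count test was run. Implied fragments were obtained by dividing the FPKM by 0.5 of its upper half-width and squaring. They were whole within 0.05 for 21 of 36 values, and are approximate for the 3 genes with several start sites and for PGRP-LF. They cover counting error only.

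The members, the 7 pathway lists, the 7 marker lists and the tests were chosen with earlier results of these data known. Named genes were the members, the rest of the family, up to 3 genes past the threshold in each pathway list and the nearest genes to members that changed. Any other gene was named after its values were seen. Results were recomputed after quantile normalization or median-ratio rescaling, with pseudocounts of 0.1 and 5, without the low filter (any gene above 0), over genes averaging at least 5 FPKM, with replicate numbers as a block, and leaving out each library. The fit was also tested on simulated data with levels and spread taken from the ND-75-i and Con libraries (9751 genes). It called 58 of 100 genes changed 2-fold, 96 of 100 changed 4-fold and 5 of 9551 unchanged. The changed genes were drawn from those of higher mean level, as many up as down, with no shift common to all genes. These rates therefore do not carry over to low genes such as PGRP-LF, PGRP-LA and PGRP-SC2, or to data with a common shift.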

Additional observations from a re-analysis of the deposited data

How the results depend on the processing

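PGRP-SA and PGRP-SD stayed lower and past the threshold under both rescalings, both pseudocounts, both filters and the replicate block. With 1 library left out, limma called 0 of the 9 genes lower, and 0 genes higher and 0 lower over the whole table, where 1 residual degree of freedom remained and a lone library was assumed to vary like the other group. Among the 9 genes 0 were higher, and 1 (PGRP-LC) with a mean of at least 5 FPKM, where PGRP-LA, PGRP-LF and PGRP-SC2 drop out. In that setting 1137 of all 6658 genes were called higher. Over all genes, median-ratio rescaling gave 347 higher, quantile normalization 373 lower and the replicate block 792 higher and 198 lower. Replicate numbers are shared by the groups without a stated pairing. Deviations of same-numbered libraries correlated at 0.357 over 10024 genes, with 1 value for 2 pairs, and the block changed the call of none of the 9 genes, but called 1 Toll pathway gene higher and 2 melanization genes lower. Genes with no call that changed sign were PGRP-LE (-0.26 after median-ratio rescaling, -0.25 after quantile normalization, -0.11 to 0.15 with 1 library left out), PGRP-SB1 (-2.62 to 0.94 with 1 library left out) and PGRP-SC2 (-0.30 to 1.29 likewise). The cause was not tested. In all, 80 of 96 alternative values of the 9 genes kept direction and side of the threshold. Low depth limits PGRP-LF, PGRP-LA and PGRP-SC2, with 3 to 35 implied fragments per library.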
